A study of Mus musculus with 8 samples.

Results

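Dendritic lineage cells were looked for among sorted KL (c-Kit+ Lin-) bone marrow cells that had been profiled by droplet-based single cell RNA-seq, and 126 of 29891 cells (0.422%) met the rule. A cell was taken when it held at least 1 unique molecular identifier (UMI, a count of 1 captured transcript) of Irf8, none of Cd79a, fewer than 30 of Camp, Ngp and Ltf together, not both Fn1 and Ccr2, and either at least 2 UMIs of Siglech or at least 2 of H2-Aa together with at least 5 of Cd74. The cells were thus chosen by the measured UMIs of these genes, so their levels are given as description; these genes stayed in the fits and were left out of every count of calls. The Siglech arm held 74 cells and the H2-Aa arm 87. The arms shared 35 cells, which left 39 cells with Siglech only and 52 with H2-Aa only.

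All mice were inbred B6 females of 3 to 4 months with no engineered allele named in the labels. SPF mice stayed in a specific pathogen-free facility, and CVT mice were moved from it to a conventional facility and housed with conventionally bred mice for 1 month. Cells were negative for CD3, CD4, CD8, CD45R, CD11b, TER119 and GR1 and positive for CD117, the Kit protein, in both groups. Marrow of 2 or 3 mice was pooled for each library, which gave 4 SPF pools (pools 1, 2, 7 and 8) and 4 CVT pools (pools 3 to 6), and the pool was the replicate. Pools 1 to 4 came from mice numbered 1 to 10 and pools 5 to 8 from mice 11 to 20, so that each set of pools held both groups.

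Dendritic cells sense microbes and present antigen to T cells. Plasmacytoid dendritic cells depend on the transcription factor Tcf4, carry the surface lectin Siglec-H, detect nucleic acids through endosomal Toll-like receptors and secrete type I interferon. Conventional dendritic cells fall into a type 1 lineage, which needs Id2 and Batf3, carries Xcr1 and Clec9a and cross-presents antigen to cytotoxic T cells, and a type 2 lineage, which uses Irf4 and Klf4. Both arise from bone marrow progenitors with high Irf8. MHC class II molecules are pairs of an alpha and a beta chain (H2-Aa with H2-Ab1, and H2-Eb1), guided by the invariant chain Cd74, loaded with peptide by H2-DM and switched on by the coactivator Ciita, which docks on a shared set of promoter boxes.

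Because H2-Aa defined an arm and other MHC class II genes were read out beside it, the stretch before the start site of 3 of these genes is shown. The windows are 120 bases up to the start site, 5′ to 3′ on the strand of the gene, from RefSeq on GRCm38.p6, and capitals mark the letters TGATTGG of the Y box. H2-Aa lies at chr17:34287824-34287943 on the minus strand, H2-Eb1 at chr17:34305747-34305866 on the plus strand and H2-DMb1 at chr17:34153071-34153190 on the plus strand.
H2-Aa: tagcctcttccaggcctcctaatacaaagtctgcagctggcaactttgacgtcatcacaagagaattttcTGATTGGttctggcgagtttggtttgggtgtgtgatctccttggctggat
H2-Eb1: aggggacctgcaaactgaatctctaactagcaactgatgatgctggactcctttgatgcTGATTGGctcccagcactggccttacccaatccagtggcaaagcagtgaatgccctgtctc
H2-DMb1: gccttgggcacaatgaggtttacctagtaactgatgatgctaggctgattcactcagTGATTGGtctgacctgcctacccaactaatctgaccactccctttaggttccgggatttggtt
The first capital stood 50 bases before the start in H2-Aa, 61 in H2-Eb1 and 63 in H2-DMb1. Of 18 genes in the MHC class II list, 13 had an entry and 7 of these held the letters on either strand (H2-Aa, H2-Eb1, H2-Eb2, H2-DMb1, H2-DMb2, H2-Oa and H2-Ob). The same letters stood in 5.15% of all 32851 promoters of that length. A match of letters is a description of the sequence only, and the submitters' processing notes name mm9, so these positions were not set against the counts.

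The pools held 1888 to 4845 cells and 19041749 to 59812346 UMIs each. The dendritic lineage cells were shallow, with a median of 5415 UMIs per cell against 8964 over all cells, and the Siglech arm had a median of 4467.5. A barcode was found in more than 1 pool for 1048 cells, of which 6 were dendritic lineage cells, and no pair of dendritic lineage cells shared a barcode. The lymphoid markers Pax5, Ms4a1, Cd3e and Cd3g had no UMI in any of the 126 cells, but other markers of their lists had UMIs. Of 2 tested B cell markers, Ebf1 was higher in the H2-Aa only cells than in Irf8 Csf1r progenitors (edgeR, adjusted p under 0.05). Lists of monocyte and granulocyte markers were above 0 as well.

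Genes of other lineages were counted in the 3 subsets (Siglech only, both arms and H2-Aa only) as UMIs per 10000, with the rule genes left out. B cell markers summed to 0.721, 0.952 and 0.631, T and NK cell markers to 0.683, 0.896 and 0.631, macrophage markers to 0.266, 0.112 and 0.328, basophil and mast cell markers to 0.114, 1.06 and 0.101, and erythroid markers to 4.71, 3.92 and 4.87. Monocyte markers summed to 12.7, 29.8 and 49.3, against 239 in Fn1 Ccr2 monocytes. Granulocyte markers summed to 34.5, 47.8 and 32.3, against 122 in the Irf8 Csf1r progenitors, and single pools stood apart for them: SPF pool 8 with 172 in Siglech only cells, CVT pool 6 with 133 in cells of both arms and CVT pool 5 with 263 in H2-Aa only cells. A single cell carried each of these values, with 574 of 604, 413 of 472 and 773 of 808 granulocyte UMIs, and the median cell thinned to 2759 UMIs held 3 in every subset.

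The rule cut through a thin population. Of 244 cells that passed an arm, 54 were lost for lack of Irf8 alone, 16 for Fn1 with Ccr2 alone and 12 for Cd79a alone, and none for the granule genes alone. Just outside the Siglech threshold, 50 cells that met the other clauses had a single Siglech UMI and failed both arms, and Ly6d stood at 273 counts per 1000000 UMIs (CPM) in them. Just inside, 8 cells had 2 or 3 Siglech UMIs and Ly6d stood at 3857 CPM. The H2-Aa threshold made no such step. The 15 H2-Aa only cells with 2 or 3 H2-Aa UMIs had Id2 at 36.2 CPM, Cst3 at 1086 CPM and Hlf at 181 CPM, and the 6 cells just outside, with 1 H2-Aa UMI and at least 5 of Cd74, had 0, 1429 and 197 CPM. Of the 54 cells lost for Irf8 alone, 39 had a UMI of the stem cell gene Hlf. A Siglech UMI was held by 21 of 2713 Irf8 Csf1r progenitors (0.774%) and by 5 of 4518 Car1 Ermap erythroid progenitors (0.111%). Their median depths were 15685 and 17879 UMIs per cell. Dendritic lineage cells had been kept out of the Irf8 Csf1r progenitors, so those could hold at most 1 Siglech UMI. Their share is therefore no free measure of Siglech background.

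Whether co-housing changed the number of dendritic lineage cells was asked first. Their share was 0.847%, 0.390%, 0.678% and 0.507% in SPF pools 1, 2, 7 and 8. In CVT pools 3, 4, 5 and 6 it was 0.268%, 0.216%, 0.369% and 0.476%. The groups overlapped, since CVT pool 6 lay above SPF pool 2, and each share rested on 9 to 23 cells. The exact 95% binomial limits of the highest share ran from 0.485% to 1.37%, and they cover counting error only. CVT pools averaged 0.332% ± 0.115 and SPF pools 0.606% ± 0.200 (SD, n = 4 each), and CVT minus SPF was -0.274 points (exact permutation test over 70 regroupings, two-sided p = 0.0571, 0.114 after Benjamini-Hochberg adjustment over 4 share tests). The smallest p this design allows is 0.0286. CVT was lower in both sets of pools, by -0.377 points in pools 1 to 4 and -0.17 points in pools 5 to 8.

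Both arms were lower on average in CVT pools, without passing the test. The arms shared 35 cells, so they do not give separate results. H2-Aa only cells made up 0.212%, 0.208%, 0.0484% and 0.331% of cells in SPF pools 1, 2, 7 and 8. In CVT pools 3 to 6 they made up 0.206%, 0.120%, 0.115% and 0.0953%, so that the groups overlapped and the lowest pool was SPF pool 7. The Siglech arm made up 0.636%, 0.182%, 0.630% and 0.176% of cells in SPF pools 1, 2, 7 and 8 and 0.0619%, 0.0958%, 0.253% and 0.381% in CVT pools 3 to 6. It differed by -0.208 points (exact permutation p = 0.229, adjusted p = 0.305). The H2-Aa arm made up 0.583%, 0.260%, 0.339% and 0.419% in SPF pools and 0.227%, 0.168%, 0.230% and 0.286% in CVT pools, a difference of -0.173 points (exact permutation p = 0.0571, adjusted p = 0.114). The Siglech arm was 54.1% ± 25.4 of the dendritic lineage cells in CVT and 62.3% ± 26.4 in SPF pools (SD, n = 4 each), and the difference of -8.26 points had an exact permutation p of 0.629. That balance differed by -27.1 points in pools 1 to 4 and by 10.6 points in pools 5 to 8. Depth bears on these shares: with every cell thinned to 2759 UMIs, the difference in all dendritic lineage cells was -0.149 points (exact permutation p = 0.343) and in the Siglech arm -0.126 points (exact permutation p = 0.4). With cells thinned to 5000 UMIs and shallower cells left out, it was -0.139 points for all (exact permutation p = 0.0571), -0.123 points for the Siglech arm (exact permutation p = 0.114) and -0.0243 points for the H2-Aa arm (exact permutation p = 0.886), and the balance of the arms differed by -28.2 points (exact permutation p = 0.257).

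**Figure D1:**
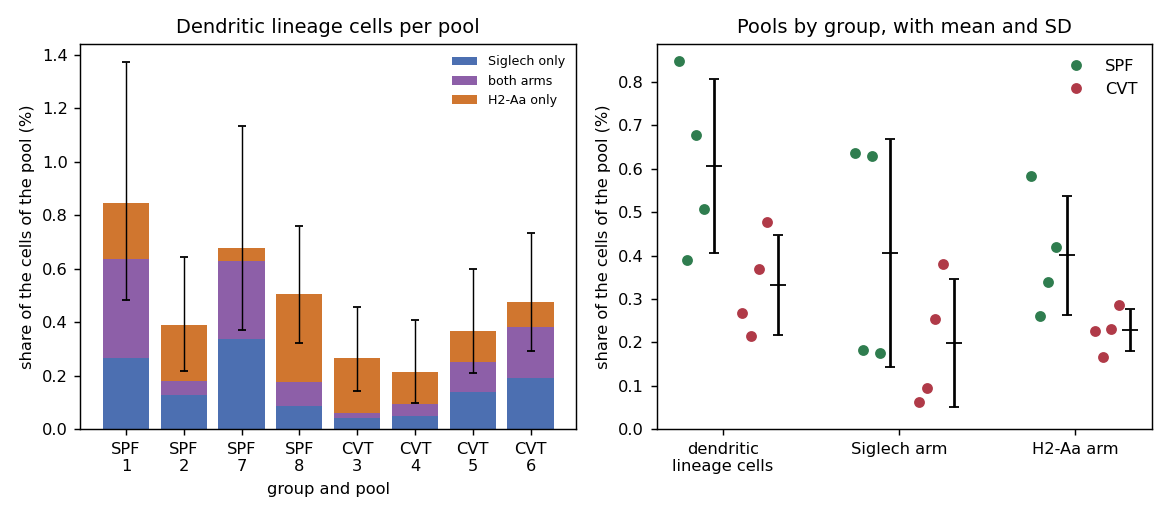
Share of dendritic lineage cells in each pool (percent of the cells of the pool) as stacked bars by subset with exact 95% binomial limits of the total (left), and the 4 pools of each group with their mean and SD (right). CVT pools lay between 0.216% and 0.476% and SPF pools between 0.390% and 0.847%.

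The label was checked against markers next. All 74 cells of the Siglech arm held more UMIs of the plasmacytoid list than of the conventional lists (shared and type 1 genes; medians of 114 against 18 in the Siglech only cells and 101 against 17 in the cells of both arms). More plasmacytoid than conventional UMIs is not particular to these cells, since the lists summed to 68.5 per 10000 UMIs against 11.9 (shared) and 2.47 (type 1) in the Irf8 Csf1r progenitors and to 68.3 against 29.1 and 4.64 in Fn1 Ccr2 monocytes. The plasmacytoid list stood higher in the Siglech only cells (183) and in the cells of both arms (212), from 118 to 273 over their pools against 65.6 to 71.5 in progenitors. Ly6d had a UMI in 70 of the 74 cells, against 51 of 2713 progenitors. The H2-Aa only cells were mixed: conventional UMIs were more numerous in 36 of 52 cells and plasmacytoid UMIs in 16. By genes picked after their values were seen, 28 of the 52 cells had at least 5 UMIs of Id2, and 25 of these 28 had Batf3. A further 13 cells had Hlf, Mecom or Dntt UMIs and at most 4 UMIs of H2-Aa, 7 had at least 50 UMIs of the myeloid lysozyme gene Lyz2, and 4 had none of these. The 28 Id2 cells came from 7 pools, with none in SPF pool 7, and the 13 cells with stem or lymphoid genes came from all 8. Dendritic markers thus named the Siglech arm and the Id2 cells, while those 13 and 7 cells went against the label and are called by the rule only.

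**Figure D2:**
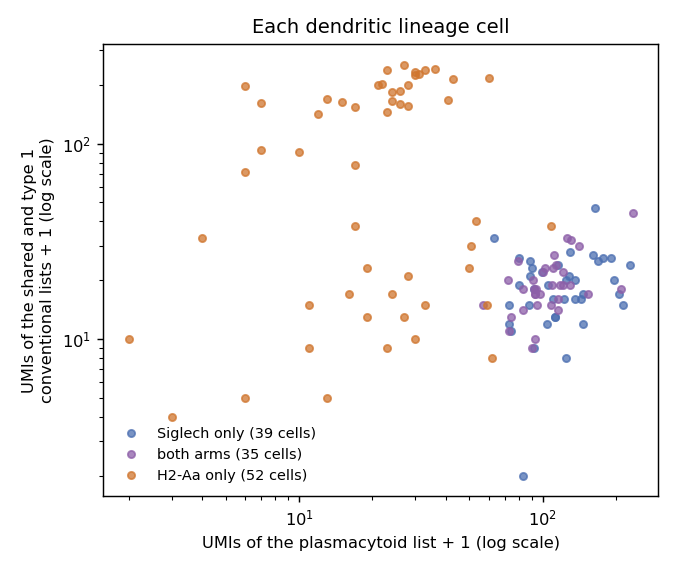
UMIs of the plasmacytoid list (horizontal, plus 1, log scale) against UMIs of the conventional lists (vertical, plus 1, log scale) in each of the 126 cells, rule genes left out. The 74 cells with Siglech form 1 cloud at the lower right, and the 52 H2-Aa only cells spread from high conventional counts to low counts of both.

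The Siglech arm was compared with Irf8 Csf1r progenitors of the same pools, 2713 cells with a median of 15685 UMIs. These were cells outside both arms with at least 1 UMI each of Irf8 and Csf1r that met the other clauses of the rule. They were not chosen for high Irf8, made up 9.08% of all cells and held granulocyte markers at 122 per 10000 UMIs. Whether they give rise to dendritic cells was not tested, and Csf1r was left out of the counts too. UMIs were summed per pool and tested with edgeR with the pool as a block, log2 changes are given with their standard errors, and "rose" and "fell" are used of genes at an adjusted p under 0.05. In the Siglech arm 1595 of 9431 genes were higher (16.9%) and 660 lower (7%), with a median log2 change of 0.30 over all genes. This split depended on scaling: it was 1298 higher and 890 lower with RLE size factors, and 839 higher and 2086 lower with TMM factors taken over all genes, where the median moved to -0.31. A change is to be read against these medians, and those that lost the call or changed sign with another scaling are marked.

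Plasmacytoid genes rose together. Of 25 tested genes of that list 24 rose and 1 fell, with a median log2 change of 6.22. Siglech chose these cells and was not counted, so that the list speaks of genes that commonly go with it. Genes near 0 in the progenitors, such as Ccr9 and Spib, could pass the expression filter through the Siglech arm alone. Such genes could hardly be called lower, so this count and those of the lists below are a description. Tcf4, the factor that sets plasmacytoid identity, ranged from 505 to 1328 CPM over the 8 pools of the Siglech arm (median 1061) and from 62.7 to 76.5 CPM in the progenitors (median 66.5). The ranges did not overlap, and Tcf4 rose by 3.89 ± 0.14 (edgeR, adjusted p = 4.3e-164). Ly6d, a surface marker of early lymphoid and plasmacytoid cells, ranged from 1540 to 7035 CPM with a median of 3680, against 0.0939 to 21.1 CPM with a median of 1.44 in progenitors, and rose by 10.40 ± 0.16. Bst2, the tetherin antigen of plasmacytoid cells, ranged from 1413 to 4523 CPM (median 2641) against 173 to 224 CPM (median 196). Cox6a2, a cytochrome oxidase subunit otherwise known from muscle, ranged from 253 to 1949 CPM (median 1234) against 6.95 to 15.2 CPM (median 9.65). Both were higher in 8 of 8 pools, by 3.74 ± 0.12 for Bst2 and 6.76 ± 0.16 for Cox6a2.

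The genes with the largest rises and the same direction in 8 of 8 pools were D13Ertd608e (log2 change 12.13), Klk1, a kallikrein protease (11.17), Pltp, a phospholipid transfer protein (10.48), Ly6d, Ccr9, a homing receptor for the gut chemokine Ccl25 (9.98), Pacsin1, an endocytosis adaptor (9.59), Spib, an Ets factor of plasmacytoid and B cells (9.39), Cd7 (9.26) and the lectin Cd209d (9.07). Havcr1 had 30 UMIs in the Siglech arm and none in the progenitors, which put it at least 984-fold higher against a floor of 3 counts over the group. Ccr9 rested on 130 UMIs, from 148 to 428 CPM over the pools, against 0 to 1.85 CPM. Spib rested on 68 UMIs, from 99.8 to 215 CPM against 0 to 0.903 CPM. Pak1, a kinase of the cytoskeleton, had no UMI in the Siglech arm and was at least 4.70-fold lower. Prodh, the proline oxidase, had none either and was at least 3.51-fold lower, and Dmkn, Polr1a, Gmpr, Msantd3, Clec5a, Sccpdh, Pi4k2b and Pter were likewise at 0.

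Among the transcription factors of dendritic development, 10 of 19 tested rose and 3 fell. Besides Tcf4 and Spib, Runx2, which acts in plasmacytoid exit from the marrow, rose by 3.91 ± 0.19 and ranged from 328 to 571 CPM against 20.6 to 33.5 CPM. Bcl11a, upstream of Tcf4, rose by 3.19 ± 0.17, from 169 to 765 CPM against 47.4 to 59.9 CPM. The 3 that fell act in myeloid fate or in progenitors, namely Cebpa (-1.87 ± 0.47), Spi1 (-1.18 ± 0.23) and Myb (-0.91 ± 0.25), each lower in 8 of 8 pools. Id2, the factor of conventional cells, had 3 UMIs in the 74 cells and did not pass the test (0.25 ± 0.93), and Batf3 had no UMI, which allows up to 6.79 CPM.

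Receptors and sensors followed. Of 18 tested receptors 11 rose, led by Ccr9, Cxcr3 (8.54 ± 0.63) and the lymphoid cytokine receptor Il7r (6.20 ± 0.33, higher in 7 of 8 pools), and 2 fell. Flt3, the receptor for the growth factor of dendritic cells, rose by 0.94 ± 0.27, from 84.2 to 155 CPM against 46.4 to 60.7 CPM, and lost the call with TMM factors over all genes (0.32) and with thinned cells (0.30). Kit, the gene of the sorting antigen, fell by 1.84 on the log2 scale, with 5 UMIs in the 74 cells and a level of 11.3 CPM against 40.2 CPM, and the call was lost without CVT pool 6 (-1.46) and in the Siglech only cells (-1.13). Of 16 sensing genes 9 rose and none fell, and Pld4, Irf7 and Tlr7 among them were also counted as plasmacytoid genes. Tlr7, the endosomal sensor of single-stranded RNA, rose by 4.87 ± 0.56 with 19 UMIs, higher in 6 of 8 pools, and its chaperone Unc93b1 rose by 1.88 ± 0.15, from 288 to 675 CPM against 127 to 179 CPM. Tlr9, the DNA sensor of the same compartment, had no UMI in the Siglech arm, which allows up to 6.79 CPM. Pld4, a nuclease of that compartment, rose by 4.14 ± 0.16.

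Interferon-stimulated genes and lymphoid priming genes were also higher. Of 19 interferon-stimulated genes 15 rose and none fell, with Irf7, the inducer of interferon genes, at 5.62 ± 0.32 (21.2 to 293 CPM over pools against 1.17 to 4.93 CPM), Ifi27l2a at 3.46 ± 0.17 and Isg15 at 3.44 ± 0.31 in 7 of 8 pools. This was not particular to the arm, since 15 of 21 rose in the H2-Aa only cells. That list summed to 28.9 per 10000 UMIs in Siglech only cells and 48.7 in both arms. It stood at 20.9 in H2-Aa only cells, 28.6 in Fn1 Ccr2 monocytes and 9.93 in progenitors. Of 10 lymphoid priming genes 8 rose and none fell. The lists overlap, since Ly6d and Ccr9 were also counted as plasmacytoid genes, and Ccr9, Il7r and Flt3 as receptors. Dntt, the nucleotide adding enzyme of receptor rearrangement, rose by 0.88 ± 0.28 in 6 of 8 pools, a call that was lost by DESeq2 (0.64), by TMM factors over all genes (0.26), without SPF pool 1 (0.67) and without CVT pool 6 (0.63). Rag2 had 2 UMIs and did not pass the test (2.24 ± 1.31).

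Genes of the azurophil granules of early myeloid cells were far lower than in the progenitors. Mpo ranged from 14.1 to 1340 CPM (median 97.2) against 2772 to 3598 CPM (median 3023), and fell by 3.66 on the log2 scale. Elane (-4.65), Ctsg (-3.72) and Prtn3 (-3.58) fell too, each in 8 of 8 pools. S100a8, a cytosolic protein of granulocytes, passed the test upwards (0.93 ± 0.14) with only 4 of 8 pools higher and a range of 253 to 4734 CPM, the highest in SPF pool 8 and 3435 CPM in CVT pool 6. The edgeR spread is shared over genes, so the number of pools in the direction is given beside each change. A single cell held 313 of the 332 S100a8 UMIs of SPF pool 8 and another 222 of the 271 of CVT pool 6.

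**Figure D3:**
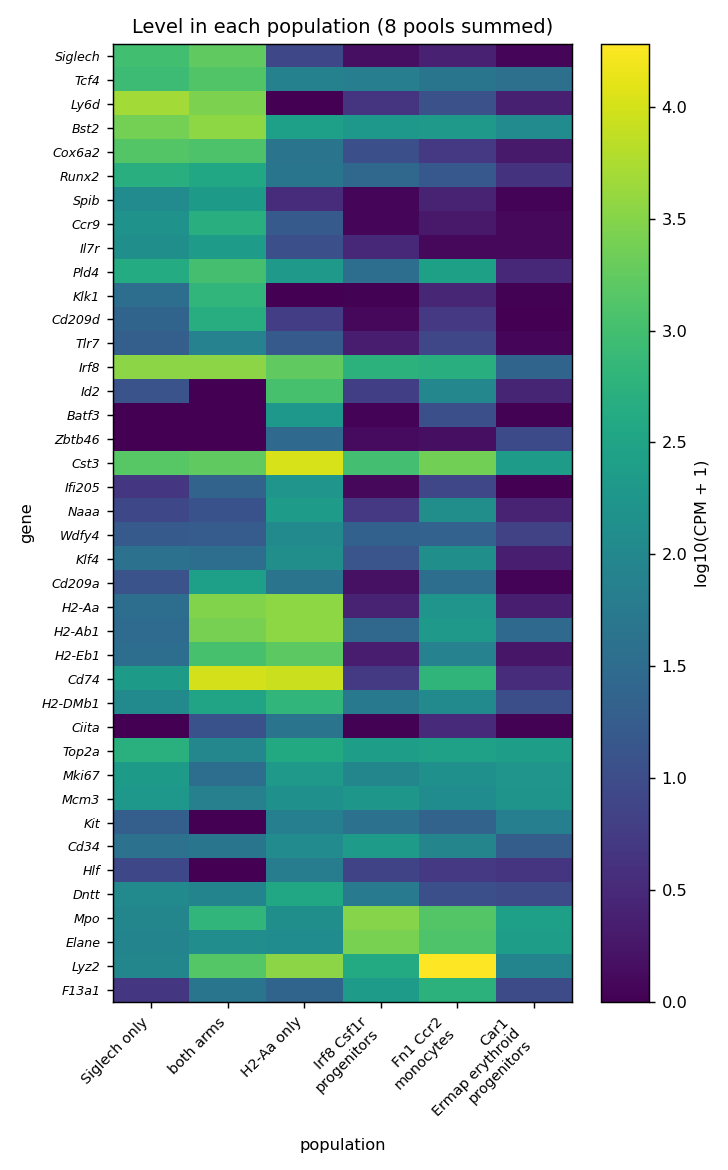
Level of 40 genes as log10(CPM + 1), 8 pools summed, in the 3 subsets of dendritic lineage cells and in 3 populations outside the rule. Tcf4, Ly6d and Cox6a2 are high where Siglech is, Id2, Batf3 and Cst3 in the H2-Aa only cells, and the MHC class II genes in the 2 subsets that pass the H2-Aa threshold; Siglech, Irf8, H2-Aa and Cd74 are rule genes.

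Within the Siglech arm the cells that also passed the H2-Aa threshold were set beside those that did not, as levels without a test. MHC class II genes outside the rule summed to 59.0 per 10000 UMIs in the cells of both arms and 13.97 in the Siglech only cells, lower in the latter in 8 of 8 pools. H2-Aa set these subsets apart, so the gap is a description. H2-Ab1 had 457 UMIs in the 35 cells of both arms and 8 in the 39 Siglech only cells. Klk1 stood at 650 CPM in both arms and 34.2 CPM in Siglech only cells, Cd209d at 471 and 22.8 CPM, Cd209a, another lectin of this family, at 263 and 11.4 CPM, and Ccr9 at 499 and 156 CPM. Tcf4 (231 and 227 UMIs) was present in every cell of both subsets.

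Mitosis genes went the other way. The list of 24 mitosis genes summed to 41.7 per 10000 UMIs in Siglech only cells, 5.32 in cells of both arms and 19.8 in progenitors, and Siglech only cells were lowest in SPF pool 1 (9.47) and highest in CVT pool 4 (104). Siglech only cells were above cells of both arms in 7 of 8 pools, with SPF pool 7 the exception (20.5 against 21.2). Top2a, the topoisomerase of dividing cells, was at 0 in cells of both arms in 6 of 8 pools. DNA replication genes stood at 31.3 and 10.9 per 10000 UMIs, higher in Siglech only cells in 7 of 8 pools. The depths differed (medians of 6123 and 4252 UMIs), and with every cell thinned to 2759 UMIs the median cell held 2 mitosis UMIs in the Siglech only subset, 0 in the subset of both arms and 3 in progenitors. The sum in Siglech only cells thus rested on a minority of them: 13 of 39 thinned cells held at least 10 mitosis UMIs, against 1 of 35 cells of both arms and 450 of 2713 progenitors.

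**Figure D4:**
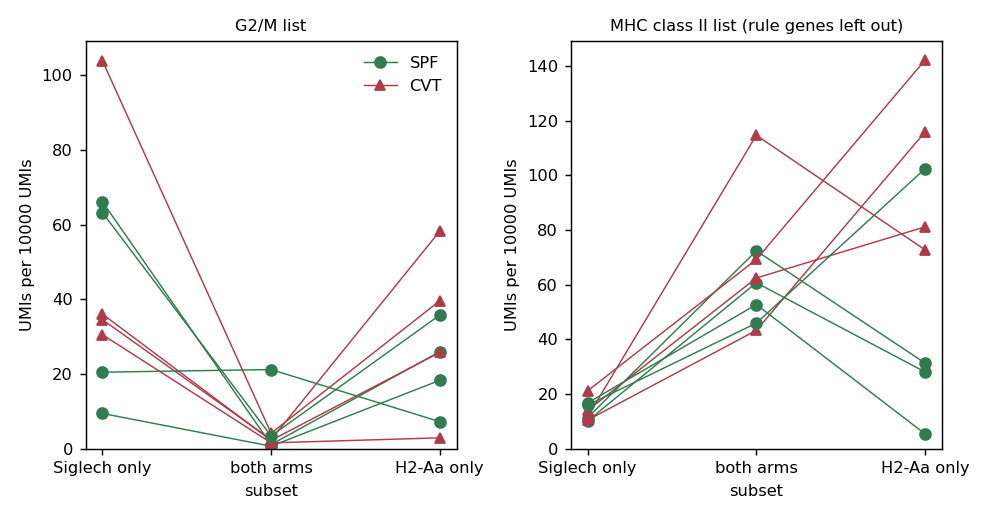
UMIs of the mitosis list (left) and of the MHC class II list without rule genes (right) per 10000 UMIs in the 3 subsets, with a line for each pool. Mitosis UMIs are lowest in the cells of both arms in 7 of 8 pools, the exception being SPF pool 7, where the single H2-Aa only cell held 7.26 against 21.2.

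The H2-Aa only cells were compared with the same progenitors. Here 1253 of 9224 genes were higher (13.6%) and 386 lower (4.18%), with a median log2 change of 0.27, and with TMM factors over all genes the split was 604 higher and 1564 lower. SPF pool 7 held a single H2-Aa only cell, which had no UMI of Id2 or Batf3, so most genes were higher in 7 of 8 pools.

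Genes of conventional dendritic cells rose. Of 12 tested genes shared by both conventional types 11 rose and none fell, and of 11 type 1 genes 11 rose. Genes near 0 in the progenitors, such as Batf3, could pass the expression filter through the H2-Aa only cells alone, so these counts are a description. Id2 ranged from 391 to 1753 CPM in the other 7 pools (median of all 8 pools 1014) against 3.57 to 9.09 CPM in progenitors, and rose by 7.63 ± 0.21 (edgeR, adjusted p = 7.47e-276). Batf3, a factor that type 1 cells need, ranged from 63.3 to 345 CPM in those 7 pools against 0 to 0.463 CPM and rose by 10.29 ± 0.45, with 75 UMIs in all. Cst3, the protease inhibitor cystatin C, ranged from 454 CPM in SPF pool 7 to 13867 CPM in SPF pool 8 with a median of 9310, against 955 to 1167 CPM, and rose by 3.02 ± 0.11. The groups of values did not overlap for these 3 genes apart from SPF pool 7.

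Other type 1 genes were Ifi205 (9.17 ± 0.42), Rab7b (3.48 ± 0.35) and Wdfy4, needed for cross-presentation (2.54 ± 0.32), each in 7 of 8 pools. The receptors Xcr1 (5 UMIs, 5.31 ± 1.06) and Clec9a (10 UMIs, 3.57 ± 0.68) were rare, higher in 4 and 6 of 8 pools. Zbtb46, a factor restricted to conventional cells, had 11 UMIs and rose by 6.34 ± 0.80 in 5 of 8 pools. Of 9 type 2 genes 6 rose, among them Klf4 (3.43 ± 0.32, 7 of 8 pools) and Cd209a (6.45 ± 0.65, 5 of 8 pools). The type 2 and shared genes were not particular to these cells. In the Siglech arm 7 of 9 type 2 genes rose, Klf4 and Cd209a included, as did 7 of 10 shared genes and 3 of 8 type 1 genes. The type 2 list summed to 5.07 per 10000 UMIs in H2-Aa only cells, 9.08 in Siglech only cells and 1.97 in progenitors. These sums hold Csf1r, a gene by which the progenitors were chosen, so the last value is a description. The list was lower in H2-Aa only cells than in cells of both arms in 7 of 8 pools. Plasmacytoid genes were divided in the H2-Aa only cells, as 7 of 14 rose and 2 fell. Pld4 rose by 2.46 ± 0.26, Plac8 fell by 1.43 and Ly6d had no UMI in the 52 cells. Tcf4 (0.31 ± 0.33) and Bst2 (0.38 ± 0.21) did not pass the test.

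MHC class II genes rose, 12 of 12 tested with none lower. H2-Aa and Cd74 chose these cells and were not counted, so that the list speaks of genes that commonly go with them. H2-Eb1 and other genes near 0 in the progenitors could pass the filter through these cells alone, so this count is a description too. H2-Ab1, the beta chain partner of H2-Aa, ranged from 182 to 7170 CPM (median 3536) against 20.3 to 33.4 CPM (median 22.9) and rose by 6.96 ± 0.16 in 8 of 8 pools. H2-Eb1, whose promoter is printed above, ranged from 0 in SPF pool 7 to 4172 CPM (median 1573) against 0.587 to 1.41 CPM and rose by 10.60 ± 0.24. H2-DMb1, the third gene with a printed promoter, ranged from 0 to 889 CPM (median 654) against 47.2 to 60.9 CPM and rose by 3.59 ± 0.19. Ciita had 17 UMIs and rose by 8.94 ± 0.78, and the lysosomal thiol reductase Ifi30 rose by 3.86 ± 0.23. In the Siglech arm 10 of 11 tested genes of the list rose, with H2-Ab1 at 5.42 ± 0.15 and H2-Eb1 at 8.55 ± 0.28. In its Siglech only cells H2-Ab1 no longer passed (0.33).

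Genes that rose in 8 of 8 pools of H2-Aa only cells were led by H2-Ab1, Aif1, a calcium binding protein of myeloid cells (5.71 ± 0.24), Irf7 (4.58 ± 0.44), Ahnak (4.43 ± 0.28), Lsp1 and Gsn, which bind actin (4.21 each), Crip1 (4.05 ± 0.13), S100a4 (3.83 ± 0.25), S100a6 (3.75 ± 0.18) and Rtp4 (3.75). Crip1 ranged from 545 to 6422 CPM against 192 to 332 CPM. Aif1 ranged from 90.8 to 671 CPM against 6.48 to 13.5 CPM. Trem3, a myeloid surface receptor, had no UMI and was at least 5.30-fold lower, and 1700020L24Rik was at least 3.70-fold lower, Cldn15 2.57-fold and Angptl4 2.34-fold. Ctsg (-4.57), Mpo (-4.44), Elane (-4.38) and Prtn3 (-3.97) fell, each in 8 of 8 pools.

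Progenitor and stress genes moved with these cells too. Of 12 progenitor genes 5 rose (Hlf, Ly6a, Cd48, Meis1 and Mecom) and 3 fell. Hlf, a factor of stem cells, rose by 3.26 ± 0.43 with 24 UMIs, and 9 of the 13 cells picked out above held it. Dntt rose by 2.41 ± 0.24, ranging from 0 to 1191 CPM, and did not pass by DESeq2 (1.70). Kit stood at 68.1 CPM against 40.2 CPM, and its change of 0.88 ± 0.35 did not pass (edgeR, adjusted p = 0.064). Lyz2 rose by 2.41 ± 0.14 with 5 of 8 pools higher and a range of 88.2 to 8827 CPM. Of 18 immediate early and handling stress genes 12 rose and 1 fell, for instance Btg2 (2.75 ± 0.26) and Jund (2.45 ± 0.25). These rises were not particular to the H2-Aa only cells. In the Siglech arm 6 of 16 rose, Btg2 and Jund included, and 3 fell. The list summed to 50.3 per 10000 UMIs in H2-Aa only cells, 35.2 in Siglech only cells and 34.9 in both arms. It stood at 40.6 in progenitors, 41.8 in Fn1 Ccr2 monocytes and 48.6 in Car1 Ermap erythroid progenitors. The part of handling in these values was not tested. Of 24 mitosis genes 14 rose and none fell in the H2-Aa only cells. Their pools ran from 2.93 to 58.3 mitosis UMIs per 10000, and the median thinned cell held 2, against 3 in progenitors. In the Siglech arm 9 of 24 rose and none fell, though its cells of both arms stood at 5.32 against 19.8 in progenitors. Top2a, among those 9, changed sign with TMM factors over all genes and with thinned cells. Of 24 DNA replication genes 5 fell in the Siglech arm and 1 rose.

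**Figure D5:**
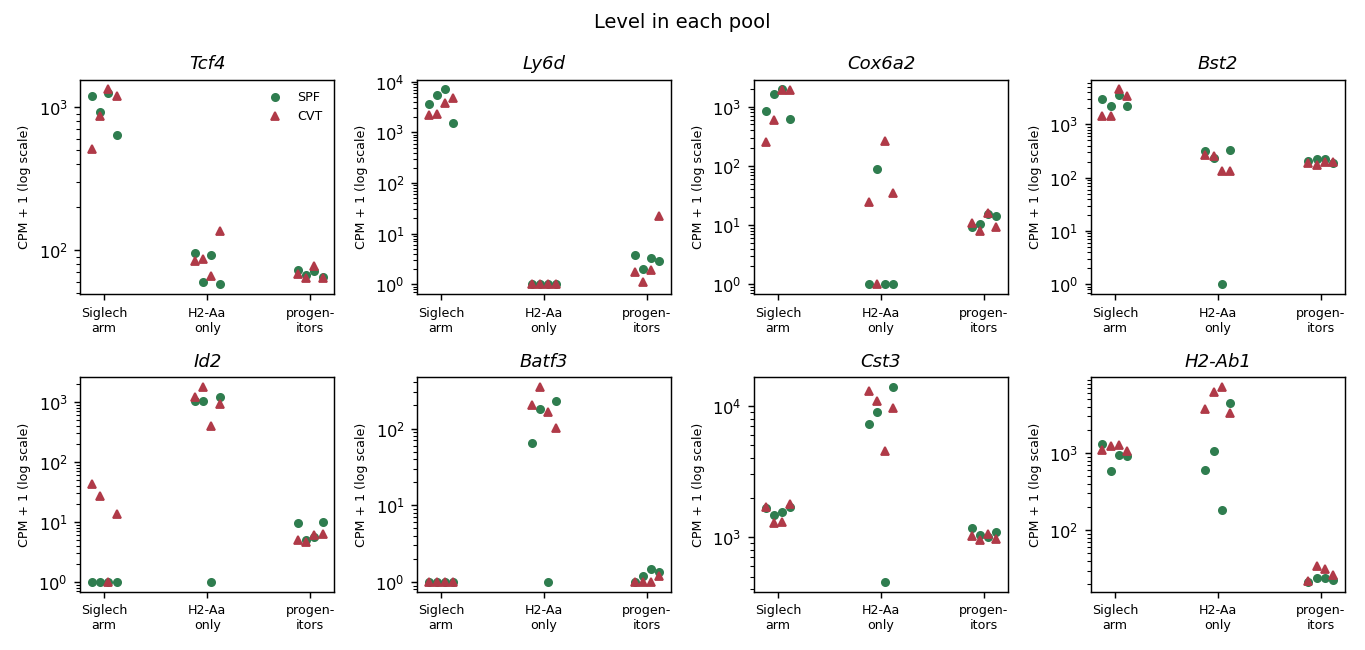
CPM + 1 (log scale) of 8 genes in each pool of the Siglech arm, the H2-Aa only cells and the Irf8 Csf1r progenitors, SPF as circles and CVT as triangles. Tcf4 and Ly6d are higher in every pool of the Siglech arm, Id2 and Batf3 in 7 of 8 pools of the H2-Aa only cells, and SPF pool 7 with its single H2-Aa only cell stands apart.

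The arms were then set against each other in the same pools. Only pools 2 and 5 held at least 5 cells of both the Siglech only and the H2-Aa only subset, and in these 9 of 521 genes were higher in H2-Aa only cells (1.73%) and 30 lower (5.76%). Id2 had no UMI in the Siglech only cells of these pools and was at least 17.5-fold higher in the H2-Aa only cells, and Aif1 was at least 9.71-fold higher. Cst3 was higher by 2.26 ± 0.26, Cd52 by 1.83 ± 0.31, Ifitm3 by 1.64 ± 0.36 and Crip1 by 1.52 ± 0.26. H2-Ab1 (6.03 ± 0.57) and H2-Eb1 (5.81 ± 0.54) were higher as well, though cells with H2-Aa had been kept out of the Siglech only side. Ly6d was at least 193-fold lower in H2-Aa only cells and Cd7 at least 20.1-fold lower, and Atp1b1 differed by -5.32 ± 0.93, Tcf4 by -4.09 ± 0.44, Bst2 by -3.89 ± 0.42, Cox6a2 by -3.71 ± 0.40, Pld4 by -3.66 ± 0.69, Runx2 by -3.39 ± 0.74, Grn by -3.09 ± 0.53 and Ctsb by -3.04 ± 0.34. All 8 tested plasmacytoid genes were lower, of 26 in the list outside the rule. Siglech chose 1 side, and cells with at least 2 Siglech UMIs were kept out of the other. Genes such as Ly6d could pass the filter through the Siglech only side alone, so this count is a description. DESeq2 called 3 genes higher and 4 lower in the same 2 pools.

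With all 8 pools and the cells of both arms kept with the Siglech arm, a choice made after seeing the data, 50 of 1145 genes were higher (4.37%) and 127 lower (11.1%). Of 17 plasmacytoid genes 16 were lower in H2-Aa only cells and none higher, a count under the same limit, since Siglech set the sides. Tcf4 differed by -3.48 ± 0.23, Cox6a2 by -4.56 ± 0.41 and Runx2 by -3.20 ± 0.33, each in 8 of 8 pools, and the lysosomal protease Ctsl by -6.01 ± 0.38. Id2 was higher by 6.57 ± 0.40 in 7 pools and Aif1 by 5.24 ± 0.45 in 8. H2-Ab1 was then higher by 1.28 ± 0.40 in 6 of 8 pools. S100a8, higher by 3.20 ± 0.71 in the smaller fit, differed by -0.39 ± 0.67 here (edgeR, adjusted p = 0.786), and it stood at 14079 CPM in the H2-Aa only cells of CVT pool 5, 1 of the 2 pools of the smaller fit, where 1 cell held 420 of 432 UMIs.

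Gene levels were last compared between CVT and SPF pools. In all dendritic lineage cells none of 1589 genes passed an adjusted p under 0.05 (0%, edgeR), while at an unadjusted p under 0.05 CVT was higher for 13 and lower for 24, and DESeq2 also made no call, with 7 and 5. The pools did not overlap for 9 genes with CVT higher (0.566%) and 26 with CVT lower (1.64%). With so few pools some genes separate in either direction under any grouping, so these counts are no measure of housing. Slirp, a mitochondrial RNA binding protein, stood at 203, 164, 226 and 184 CPM in CVT pools 3 to 6 and at 107, 121, 101 and 119 CPM in SPF pools 1, 2, 7 and 8, a log2 difference of 0.81 ± 0.23 (edgeR, adjusted p = 1). Cmpk1, a nucleotide kinase, followed with 0.67 ± 0.24 (edgeR, adjusted p = 1). Lower in CVT pools were Ube2e3, a ubiquitin conjugating enzyme (-0.91 ± 0.30), and the proteasome subunit Psmd2 (-1.07 ± 0.36), with groups that did not overlap and edgeR adjusted p = 1 for both.

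The genes of the rule were left out of these counts, and their levels are description. H2-Aa stood at 2904, 3684, 3421 and 2290 CPM in CVT pools 3 to 6 and at 1170, 1171, 1123 and 2876 CPM in SPF pools 1, 2, 7 and 8. SPF pool 8 lay within the CVT range, and the other SPF pools lay under it. Siglech ranged from 194 to 1113 CPM in CVT and from 347 to 1224 CPM in SPF pools, and the groups overlapped. Outside the rule, H2-Ab1 differed by 1.07 ± 0.41 and Tcf4 by -0.08 ± 0.49 (edgeR, adjusted p = 1 for both). By list, the 17 tested plasmacytoid genes had a median log2 difference of -0.09, the 6 MHC class II genes of 0.50, the 6 interferon-stimulated genes of -0.01 and the 8 immediate early and stress genes of 0.78, beside 0.00 over all genes, and none of them passed. Without SPF pool 8, H2-Ab1 was the 1 gene called (1.76 ± 0.27, edgeR, adjusted p = 0.0349). Within the H2-Aa only cells, MHC class II genes outside the rule summed to 72.7, 116, 142 and 81.1 per 10000 UMIs in CVT pools 3 to 6 and to 31.3, 28.1, 5.45 and 102 in SPF pools 1, 2, 7 and 8, so that the groups overlapped through SPF pool 8. The kinds of cells in these sums differed between pools. The cells with stem or lymphoid genes picked out above were 1 of 4, 4 of 8, 1 of 1 and 2 of 15 in these SPF pools. In CVT pools 3 to 6 they were 1 of 10, 1 of 5, 2 of 5 and 1 of 4. The part of this mix in the MHC class II values was not tested.

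In the Siglech arm, 4 SPF pools and CVT pools 5 and 6 held at least 5 cells. None of 1308 genes passed (0%, edgeR), while at an unadjusted p under 0.05 CVT was higher for 27 and lower for 43, and there was no call by DESeq2 (10 and 14). Pools did not overlap for 97 genes with CVT higher (7.42%) and 109 with CVT lower (8.33%). Separation under any grouping is more common with fewer pools, so these larger shares are no measure of housing. Ly6a, the Sca-1 antigen and an interferon-stimulated gene, stood at 653 and 532 CPM in CVT pools 5 and 6 and at 211, 233, 293 and 228 CPM in SPF pools, a log2 difference of 1.27 ± 0.29 (edgeR, adjusted p = 0.27). CVT pools 3 and 4, which had 3 and 4 cells of the arm and were not in this fit, had no Ly6a UMI in it. Calls appeared when 1 pool was left out. Without SPF pool 8, S100a8 (2.41 ± 0.37) and S100a9 (1.90 ± 0.35) were higher in CVT, and without CVT pool 5 Lyz2 was (5.27 ± 0.36), of which 1 cell held 236 of the 251 UMIs in CVT pool 6. S100a6 (0.95 ± 0.27) and Pld4 (0.73 ± 0.26) were higher and were among the 5 genes of smallest p, and Calr, an endoplasmic reticulum chaperone (-1.03 ± 0.33), Ran, of nuclear transport (-0.95 ± 0.31), and Ncl, of the nucleolus (-1.10 ± 0.36), were lower in CVT, at an edgeR adjusted p of 0.821 for each.

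In the H2-Aa only cells, CVT pools 3 to 5 and SPF pools 2 and 8 held at least 5 cells. None of 1144 genes passed (0%, edgeR), while at an unadjusted p under 0.05 CVT was higher for 20 and lower for 8, and there was no call by DESeq2 (13 and 2). With the set of pools as a block, Retnlg, a granulocyte gene, was called higher in CVT (7.49 ± 1.21, edgeR, adjusted p = 0.0168), and 1 cell of CVT pool 5 held all 111 of its UMIs there. Without SPF pool 8, SPF pool 2 alone was left on its side. H2-Ab1 then differed by 2.48, Lyz2 by 5.21, Apoe by 4.42 and Ccl6 by 4.63. Of the 8 cells of SPF pool 2, 4 were among those with stem or lymphoid genes. Pools did not overlap for 58 genes with CVT higher (5.07%) and 100 with CVT lower (8.74%). The same limit holds for these counts and for the genes named from them. Immediate early genes led by p. Fos stood at 531, 1092 and 196 CPM in CVT pools 3, 4 and 5 and at 73.5 and 113 CPM in SPF pools 2 and 8 (2.66 ± 0.61), Btg2 differed by 1.84 ± 0.52, Jun by 1.58 ± 0.46 and the heat shock gene Hspa1a by 3.60 ± 1.03, at an edgeR adjusted p of 0.999 for each. The progenitors of pools 3 and 4 were also the highest of the 8 for Fos, at 147 and 188 CPM against 39.4 to 103 CPM elsewhere, and for Hspa1a, at 77.5 and 162 CPM against 6.85 to 41.9 CPM. The part of such a difference between libraries in the H2-Aa only values was not tested. The 4 tested granulocyte genes had a median difference of 3.82 with none past the test, and S100a8 stood at 14079 CPM in CVT pool 5, where 1 cell held 420 of 432 UMIs, and at 221 to 517 CPM in the other 4 pools. Ranbp1 (-1.21 ± 0.41) and Tipin (-2.07 ± 0.74) were lower in CVT at the same adjusted p.

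Whether housing acted differently in the arms or in the sets of pools was tested by interaction terms. These fits used all 8 pools. The fit for the arms thus held 1 H2-Aa only cell in SPF pool 7 and 3 and 4 Siglech arm cells in CVT pools 3 and 4. None of 1145 genes passed for the arms (0%, edgeR, rule genes not counted), with 15 and 8 at an unadjusted p under 0.05 in either direction, and none of 2081 for the sets of pools (0%), with 61 and 79. With at most 23 cells per pool, a housing difference in a single gene was detectable only where it was large against the spread between pools.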

How the data were processed

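The deposited table held counts: UMI counts per gene and cell that the authors made with Cell Ranger (version and parameters not given in the sources used here; the submitters' processing notes name mm9) from Chromium 3′ v2 libraries, without normalization. The number that ends each cell's name gave its pool, by the same number in the labels' description of each sample; 0 columns were left unassigned. Each group held slightly fewer cells than the study's methods state. The cells, gene lists and comparisons were chosen with earlier results of these data known.

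UMIs were summed per pool and tested with edgeR 4.0.16 (glmQLFit, glmQLFTest, limma 3.58.1, R 4.3.3) after its expression filter. Housing and arms were tested in pools with at least 5 cells, and comparisons with progenitors in all 8 pools with pool as a block. Interaction fits used all 8 pools whatever their number of cells. TMM factors were taken over genes of at least 100 CPM on average, because in a test on simulated data factors over all genes, the plan at first, were biased where deep and shallow sums met; those are given as an alternative. The SE is the log2 change divided by the root of F. CPM are per 1000000 UMIs. A gene with no UMI in a group was compared with a floor of 3 counts over the group. Shares were compared by exact permutation tests. Alternatives were RLE factors, no filter, DESeq2 1.42.0, thinning to 2759 or 5000 UMIs, a stricter rule, a cell filter, the pool set as a block, and leaving out each pool. Named genes are the 4 marker genes, genes of the lists, for housing the 5 of smallest p in each direction whose pools do not overlap, and otherwise the 10 with the largest change in each direction at an adjusted p under 0.05 and the same direction in every pool; some of these are given by count only. Scrublet (scanpy 1.11.5) marked 94 cells (0.314%), which is too few to have worked, so doublets were not removed. Some results are not reported here. Python 3.11.15, NumPy 2.4.6, SciPy 1.17.1 and pandas 2.3.3 were used.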

Additional observations from a re-analysis of the deposited data

Results flagged for a closer look

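Dixon's test over groups of 4 pools flagged 4 of 34 groups. Most groups were of genes named because their CVT and SPF pools did not overlap, and others were of rule genes. The nominal rate of about 1 in 20 is therefore no measure for them. In all dendritic lineage cells, Cmpk1 in SPF pool 8 (96.6 CPM) lay far below the other SPF pools. Ssr4 in CVT pool 5 (639 CPM) and Mrpl34 in CVT pool 5 (66.6 CPM) lay far from the other CVT pools. H2-Aa in SPF pool 8 (2876 CPM) lay far above the other SPF pools (1123 to 1171 CPM).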

How the results depend on the processing

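No paired analysis was possible because no SPF pool has the replicate number of a CVT pool; the 2 sets of pools, each with 2 pools of either group, served as a block instead, and regrouping within sets gave an exact permutation p of 0.0556 for all dendritic lineage cells. Direction held for the share of dendritic lineage cells and of each arm under every alternative run. Without SPF pool 2 the difference was -0.345 points for all dendritic lineage cells and -0.219 for the H2-Aa arm, with an exact permutation p of 0.0286 for each; leaving out each pool in turn gave -0.345 to -0.193 points for all cells, -0.284 to -0.131 for the Siglech arm, -0.219 to -0.112 for the H2-Aa arm and -17.4 to 2.07 for the Siglech arm among dendritic lineage cells, where the sign changed without CVT pool 3 (2.07) and without SPF pool 7 (1.92).

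Calls between CVT and SPF were few under other settings. Without a filter on low counts, 6 genes were higher in all dendritic lineage cells, 2 higher and 1 lower in the Siglech arm and 6 higher in the H2-Aa only cells, and with the pool set as a block Retnlg was higher in the last. Leaving out pools gave 0 to 1, 0 to 2 and 0 to 4 higher calls, the largest without SPF pool 8 each time. In the difference between arms, higher and lower calls were 30 and 46 with RLE factors, 24 higher without a filter, 3 and 4 by DESeq2, 3 and 13 with thinned cells, and 50 and 127 with all 8 pools, where S100a8 turned to -0.39. No pool could be left out of that fit of 2 pools. For the Siglech arm against progenitors, TMM factors over all genes gave 839 and 2086, thinning 925 higher and the Siglech only cells 421 lower; leaving out pools gave 1397 to 1659 higher and 510 to 613 lower. Under TMM factors over all genes Ly6c2 (-0.17), Cst3 (-0.03), Zeb2 (-0.02) and Top2a (-0.08) changed sign, as did Top2a with thinned cells (-0.16). For the H2-Aa only cells, TMM factors over all genes gave 604 and 1564, DESeq2 255 lower and thinning 442 and 162; leaving out pools gave 891 to 1247 higher and 206 to 365 lower, with 206 without CVT pool 3 and 235 without SPF pool 8. The cause of these changes was not tested. Depth limits what a housing comparison could show, with 9 to 23 cells in a pool and 43.7% of the cells under 5000 UMIs.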
